A study of Mus musculus with 8 samples.

Results

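The genes described here are 35 markers of fat cells, of the stromal cells that carry the bone marrow, and of connective-tissue fibroblasts. They were listed by name, with earlier results of these data known. Of these, 31 were measured among 18193 genes, by 68 of 45037 probe sets, where a probe set counted when the array's annotation gave it exactly 1 gene symbol. They were kept as 10 measured adipocyte genes (of 13 listed) and 21 stromal and fibroblast genes (of 22). Cfd, Plin1, Angptl2 and Ly6a are not analysed here.

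The bones were tibiae and femora of males, 12 days old, and their total RNA went onto 8 arrays: 4 for Hyp and 4 for wild type (WT). Each RNA joined 2 bone samples of 1 genotype. In Hyp, a mouse model of X-linked hypophosphatemia, Phex lacks its 3′ part, and the strain is C57BL/6. The labels of the controls give them as wild type without a background strain. They do not say how many animals stood behind each RNA, so a p-value measures only how the RNA samples varied, which may be partly technical. The deposited values of a probe set have a median of 0 across all 8 arrays, so each is a difference from that median in log2 units. No level of any gene can be read, and the presence of fat or stromal cells in the bones could not be checked against their markers. At the Phex probe set with the larger difference the Hyp arrays read -4.93 to -3.72 and the WT arrays 3.72 to 4.00, in accord with every label, though its place relative to the deletion was not examined. Skeletal muscle genes set Hyp replicate 2 (list mean -1.39) and WT replicate 3 (2.09) apart from the other arrays. In bulk RNA, fewer cells of a type and less RNA per cell cannot be told apart.

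Adipocytes store triglyceride in droplets coated by perilipins and CIDE proteins, under the control of the transcription factors PPARgamma and C/EBP, and they secrete adiponectin, leptin and, in mice, resistin. Marrow stromal cells marked by the leptin receptor make CXCL12, stem cell factor (Kitl) and IL-7, which hold and feed blood stem cells and lymphoid progenitors, and in adult mice these stromal cells can form fat and bone. Fibroblasts of tendon sheath, periosteum and vessel walls share many of their surface markers. Twist and Prrx factors mark the limb mesenchyme from which these lineages come.

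Promoter sequences were in the RefSeq table (GRCm38.p6) for 28 of the 35 genes. Those shown belong to 4 of the 5 genes whose call held under all 21 alternative settings (Gsn is the other): the niche ligands Kitl and Cxcl12, which rose, and Lifr and Twist1, which fell. Each is the 250 bases before a start site, on the + strand, 5′ to 3′. Capitals mark matches to the GC box (GGGCGG) and to TATAAA on either strand, where neighbouring matches may overlap.
Kitl, chr10:100015571-100015820: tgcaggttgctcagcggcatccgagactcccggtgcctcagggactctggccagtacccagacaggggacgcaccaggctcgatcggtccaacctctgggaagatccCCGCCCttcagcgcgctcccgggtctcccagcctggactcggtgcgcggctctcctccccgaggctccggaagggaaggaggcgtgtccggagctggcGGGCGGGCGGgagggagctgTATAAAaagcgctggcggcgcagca
Cxcl12, chr6:117168285-117168534: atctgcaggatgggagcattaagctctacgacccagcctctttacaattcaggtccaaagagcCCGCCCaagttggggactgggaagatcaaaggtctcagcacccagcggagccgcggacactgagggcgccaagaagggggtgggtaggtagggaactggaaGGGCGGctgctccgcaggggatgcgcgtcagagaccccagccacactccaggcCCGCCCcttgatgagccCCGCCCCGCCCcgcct
Twist1, chr12:33957421-33957670: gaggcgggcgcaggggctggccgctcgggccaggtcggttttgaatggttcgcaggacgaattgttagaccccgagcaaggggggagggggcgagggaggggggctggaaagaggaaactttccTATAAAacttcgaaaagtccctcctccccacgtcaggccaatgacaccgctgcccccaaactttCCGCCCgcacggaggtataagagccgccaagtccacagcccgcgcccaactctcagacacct
Lifr, upstream start, chr15:7129322-7129571: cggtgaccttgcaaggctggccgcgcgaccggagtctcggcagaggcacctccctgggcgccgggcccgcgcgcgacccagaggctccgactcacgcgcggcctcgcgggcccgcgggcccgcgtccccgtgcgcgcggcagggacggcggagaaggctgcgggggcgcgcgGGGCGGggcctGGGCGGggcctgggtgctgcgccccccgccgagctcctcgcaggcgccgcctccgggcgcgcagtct
Lifr, downstream start, chr15:7140292-7140541: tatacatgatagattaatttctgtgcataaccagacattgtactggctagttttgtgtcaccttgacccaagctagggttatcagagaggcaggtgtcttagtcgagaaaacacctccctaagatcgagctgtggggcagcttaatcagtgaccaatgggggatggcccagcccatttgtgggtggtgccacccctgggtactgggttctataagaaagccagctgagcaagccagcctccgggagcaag
Kitl held 3 GC boxes, of which 2 overlapped at -45 and -41, and a TATAAA at -25 from the start. Cxcl12 held 5 GC boxes and no TATAAA. Twist1 held 1 of each, with its TATAAA farther from the start than that of Kitl, at -126. The start sites of Lifr differed. The upstream one had 2 GC boxes, 43 CpG and 82.4% G+C, and the downstream one no GC box, 3 CpG and 50.8% G+C. Of all 32851 promoter windows of 250 bases, 32.7% held a GC box and 12.4% a TATAAA. Which start site was used in these bones was not measured.

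Among the 31 genes, 6 were higher and 5 lower in Hyp bone at a limma adjusted p under 0.05. That is 35.5% of them, against 12.9% of all genes (6.54% higher and 6.32% lower). No test of the list was made. All changes were under 2-fold, from 1.20-fold to 1.85-fold in size. The groups did not overlap in 9 of the 11 genes that passed and in 1 that did not (Lep), where 19.2% of all genes had groups that did not overlap (10.3% with Hyp above WT and 8.89% with Hyp below WT). The adipocyte genes had 2 higher and 1 lower of 10, with a median difference of 0.18, and the stromal and fibroblast genes 4 higher and 4 lower of 21, with a median of 0.10. The median over all genes was 0.025 and the median size of a difference 0.089, against median sizes of 0.20 for adipocyte and 0.24 for stromal genes. The count of all genes that were higher, 1190, was 605 without WT replicate 1 and 787 without WT replicate 4.

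**Figure D1:**
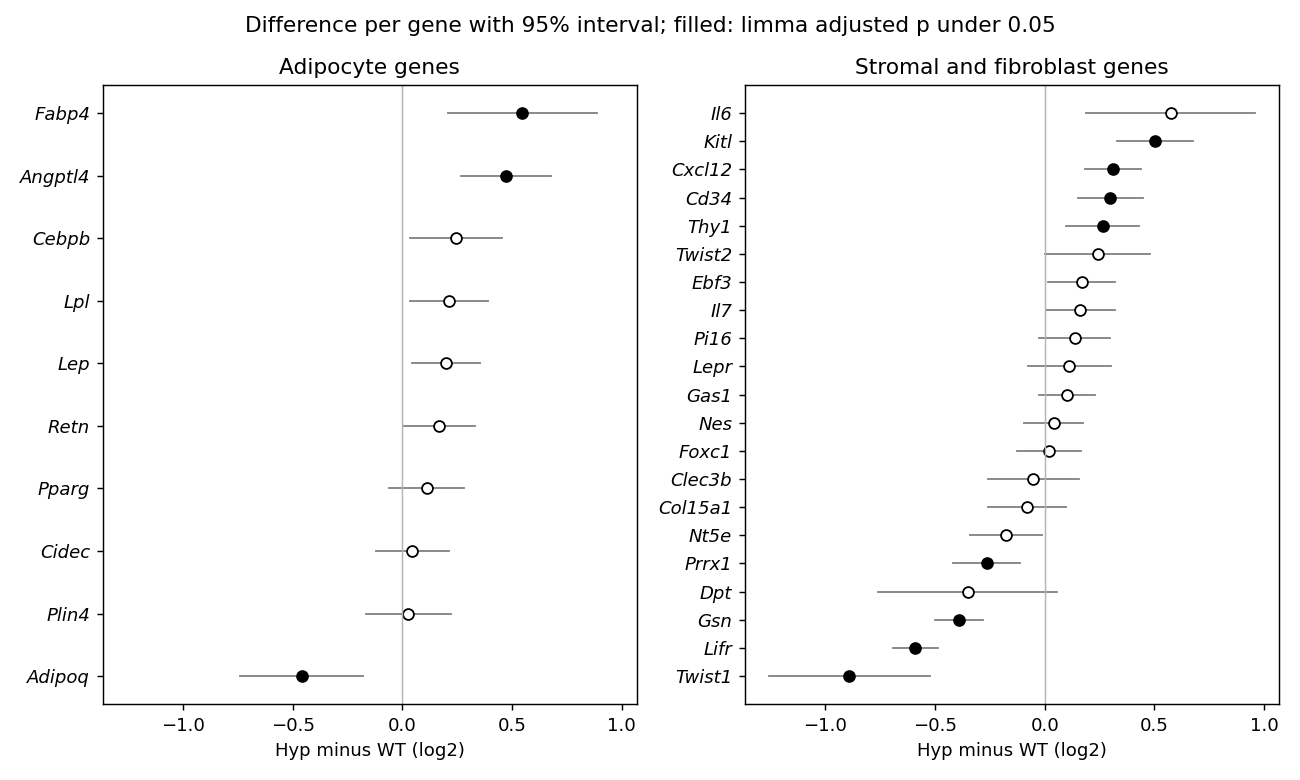
Difference between Hyp and WT bone (log2, x axis) for each measured adipocyte gene (left) and stromal or fibroblast gene (right), as the gene mean of its probe sets with the 95% interval of the limma fit. Filled points passed at an adjusted p under 0.05; the largest decrease is Twist1 at -0.89, and the largest difference above 0 is Il6 at 0.57, which did not pass.

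Of the adipocyte genes, Fabp4 and Angptl4 rose while Adipoq fell, and each of these calls was lost in at least 1 alternative setting. Fabp4, the fatty acid carrier of fat cells that capillary endothelium and macrophages also make, read 5.7e-05, 0.071, 0.27 and 0.50 on the 4 Hyp arrays, against -0.34, -0.73, 0.048 and -0.32 on the WT arrays. WT replicate 3 lay within the range of the Hyp arrays and the other WT arrays lay below it. The difference was 0.55 ± 0.15 (SE, n = 4 per group; limma adjusted p = 0.0412), or 1.46-fold. In the fit over all probe sets, where 7.13% passed (3.22% higher and 3.91% lower), none of its 4 passed singly, with differences of 0.35, 0.37, 0.56 and 0.91, and with the most variable of them in place of the mean the value was 0.91 (limma adjusted p = 0.0403). The call was lost without Hyp replicate 2, 3 or 4 or WT replicate 1, 2 or 4 (limma adjusted p from 0.0591 to 0.101), with cyclic loess normalization (0.0749) and without the probe sets whose name marks probes shared between transcripts (0.73, 0.0765).

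Angptl4, a secreted inhibitor of lipoprotein lipase and a target of PPAR factors, read 0.23, 0.016, 0.33 and 0.39 in Hyp bone and -0.07, -0.35, -0.14 and -0.35 in WT bone. Every Hyp array lay above every WT array. It rose by 0.47 ± 0.093 (SE; limma adjusted p = 0.00839), or 1.39-fold. Its 2 probe sets disagreed in size: the 1 with such shared probes rose by 0.78 ± 0.11 (limma adjusted p = 0.00214), and the other lay at 0.16 ± 0.093 (0.348). Without the shared-probe set the gene thus lay at 0.16 and did not pass (limma adjusted p = 0.288).

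Adipoq, which encodes adiponectin, a hormone of fat cells, went the other way. Its values were -0.60, -0.54, -0.26 and 0.022 in Hyp bone and -0.022, 0.029, 0.28 and 0.18 in WT bone. Hyp replicate 4 lay among the WT arrays. Adipoq fell by 0.46 ± 0.13 (SE; limma adjusted p = 0.0379), or 1.37-fold, on its single probe set, which did not pass in the fit over all probe sets (limma adjusted p = 0.0623). The call was lost without any 1 array other than Hyp replicate 4 (limma adjusted p from 0.0559 to 0.0983), and without both Hyp replicate 2 and WT replicate 3 (0.154). With the mean of the skeletal muscle genes as a covariate the difference was -0.38 and did not pass (0.0898). None of the 10 muscle genes passed in limma (1 at an unadjusted p under 0.05), and their mean was 0.19, -1.39, 0.093 and -0.28 on the Hyp arrays and -0.67, -0.13, 2.09 and 0.34 on the WT arrays. Adipoq was lowest in Hyp replicate 1 and highest in WT replicate 3.

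The other 7 adipocyte genes did not pass and lay between 0.026 and 0.25. The transcription factor genes Cebpb and Pparg lay at 0.25 (95% interval 0.035 to 0.46) and 0.11 (-0.062 to 0.28). Lpl, lipoprotein lipase, lay at 0.21 ± 0.081 (SE; limma adjusted p = 0.119). It passed without WT replicate 3 (0.27, limma adjusted p = 0.0328) but in none of the other 20 of the 21 alternatives (limma adjusted p up to 0.250). Lep and Retn, the genes of leptin and resistin, lay at 0.20 (0.042 to 0.35) and 0.17 (0.0068 to 0.33). For Lep the Hyp arrays read 0.23, 0.089, 0.021 and 0.033 and the WT arrays -0.021, -0.08, -0.27 and -0.043, with no overlap but a limma adjusted p of 0.0949. The droplet proteins Cidec and Plin4 lay at 0.046 (-0.12 to 0.21) and 0.026 (-0.17 to 0.22).

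Single arrays tended to be high or low for several adipocyte genes at once. Hyp replicate 4 was the highest of the Hyp arrays for 7 of the 10 genes, and WT replicate 3 the highest of the WT arrays for 6. The mean over the 10 genes was 0.01, -0.032, 0.081 and 0.20 on the Hyp arrays and -0.12, -0.16, -0.012 and -0.071 on the WT arrays. These means overlap, since WT replicate 3 lay above Hyp replicate 2.

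Further genes of the fat cell programme changed about as often as genes at large. Of 28 measured, 2 rose and 2 fell, or 14.3% against the 12.9% of all genes, with a median of 0.034. Cebpa, a transcription factor of adipocytes and granulocytes, rose by 0.45 ± 0.077 (SE; limma adjusted p = 0.00365). Plin2, a droplet coat protein of many cell types, rose by 0.42 ± 0.053 (0.000633). Scd1, the stearoyl-CoA desaturase, fell by 0.60 ± 0.11 (0.00584), and Car3, a carbonic anhydrase of fat and slow muscle, fell by 1.11 ± 0.057 (7.04e-06). Car3 read -0.56, -0.50, -0.49 and -0.63 in Hyp bone, against 0.62, 0.55, 0.63 and 0.45 in WT bone, a wide gap between the groups.

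Partners of lipoprotein lipase and of lipid uptake moved in both directions, with 3 higher and 2 lower of 9 measured, or 55.6% against the 12.9% of all genes (6.54% higher and 6.32% lower), and a median of 0.21. Lipg, endothelial lipase, rose by 0.96 ± 0.078 (SE; limma adjusted p = 5.57e-05) and Apoe, apolipoprotein E, by 0.73 ± 0.08 (0.000241). Gpihbp1, which carries lipoprotein lipase to the capillary lumen, rose by 0.30 ± 0.069 (0.0169). The lipoprotein receptor gene Vldlr and the fatty acid carrier Fabp5 fell by 0.42 ± 0.076 (0.00508) and 0.20 ± 0.056 (0.0398). Markers of endothelial cells, which make Fabp4, Lipg and Gpihbp1, were higher in Hyp bone for 12 of 12 genes, with a median of 0.44. Their summed value ranged from 1.41 to 3.14 on the Hyp arrays and from -4.45 to -2.33 on the WT arrays. Macrophage markers were higher for 9 of 12, with sums from 2.02 to 3.98 in Hyp bone and from -4.25 to -2.83 in WT bone. Whether any of these markers was at background cannot be read from centred values, and the part of these cells in the rise of Fabp4 and Apoe was not tested.

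**Figure D2:**
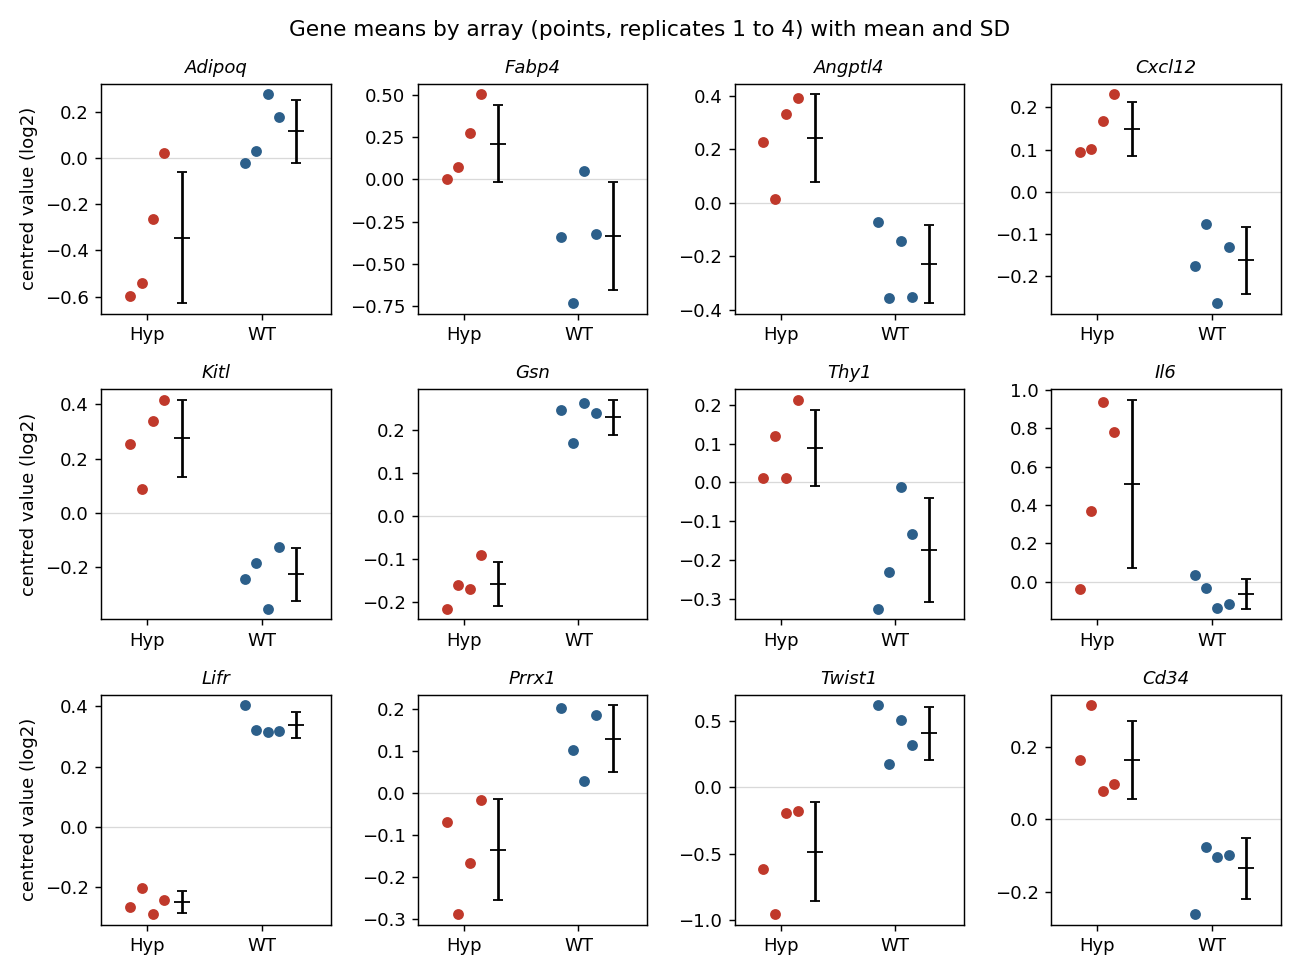
Centred value (log2, y axis) of the 11 genes that passed and of Il6 on each array, with Hyp left of WT, replicates 1 to 4 from left to right, and the mean and SD beside them; the y axes differ in scale. Hyp and WT points do not overlap except for Adipoq, Fabp4 and Il6.

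Among the genes of the marrow niche, Kitl and Cxcl12 rose, while Il7 and the markers of the stromal cells themselves did not pass. Kitl, stem cell factor, read 0.26, 0.088, 0.34 and 0.42 in Hyp bone, against -0.25, -0.19, -0.35 and -0.13 in WT bone. The Hyp arrays all lay above the WT arrays. The difference was 0.50 ± 0.077 (SE; limma adjusted p = 0.00191), or 1.42-fold. Its 4 probe sets all lay above 0, at 0.38, 0.43, 0.59 and 0.62, and the 2 largest passed singly.

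Cxcl12, the chemokine that retains blood stem cells, read 0.094, 0.10, 0.17 and 0.23 in Hyp bone and -0.18, -0.077, -0.26 and -0.13 in WT bone. The groups lay apart, and the rise was 0.31 ± 0.057 (SE; limma adjusted p = 0.00534), or 1.24-fold. Of its 3 probe sets 2 passed, at 0.45 and 0.38, and the third lay at 0.11 (limma adjusted p = 0.557). Both ligands are also made by endothelial cells and osteoblast-lineage cells. Osteoblast markers were lower for 7 of 8 genes, where 6.32% of all genes were lower. Their sums ran from -3.93 to -2.10 in Hyp bone and from 2.31 to 3.27 in WT bone. Endothelial markers were higher, as given above. The part of either cell type was not tested.

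The leptin receptor gene Lepr, which defines the stromal cells of adult marrow, lay at 0.11 (95% interval -0.078 to 0.30), with its 4 probe sets between 0.014 and 0.17. Foxc1 and Ebf3, transcription factors that keep these cells in the stromal state, lay at 0.019 (-0.13 to 0.17) and 0.17 (0.017 to 0.32). Ebf3 passed with only its probe set without a shared-probe suffix (0.25, limma adjusted p = 0.0378) and not otherwise. Il7, the growth factor of early lymphoid cells, lay at 0.16 ± 0.071 (SE; limma adjusted p = 0.169).

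Of 16 measured niche and IL-6 family signals and receptors beyond those listed, 2 rose and 1 fell, or 18.8% against the 12.9% of all genes, with a median of 0.047. Ackr3, the scavenger receptor of CXCL12, fell by 0.68 ± 0.12 (SE; limma adjusted p = 0.0037), with values of -0.34, -0.18, -0.22 and -0.67 in Hyp bone and 0.59, 0.21, 0.34 and 0.18 in WT bone. Csf1, the macrophage growth factor, rose by 0.38 ± 0.059 (0.0021) and Il6ra, the IL-6 receptor, by 0.24 ± 0.049 (0.00982). Named after their values were seen, the CXCL12 receptor gene Cxcr4 lay at -0.046 ± 0.066 and Kit, the receptor of stem cell factor, at 0.12 ± 0.056, neither of which passed (limma adjusted p = 0.70 and 0.189).

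Lifr, the receptor subunit through which leukaemia inhibitory factor and related cytokines signal, had the smallest p of all 31 genes. It read -0.27, -0.20, -0.29 and -0.24 in Hyp bone, against 0.40, 0.32, 0.31 and 0.32 in WT bone. In this gene mean the arrays of each genotype lay close together and the genotypes far apart. The WT arrays had an SD of 0.043 in the gene mean, against 0.11, 0.18 and 0.14 at the single probe sets. Lifr fell by 0.59 ± 0.047 (SE; limma adjusted p = 5.25e-05), or 1.51-fold. Its 3 probe sets all passed but differed in size, at -0.96 ± 0.069, -0.50 ± 0.091 and -0.32 ± 0.075, and the most variable of them alone gave -0.96 in place of the mean. Which of the 2 start sites shown above, or which transcript form, each of them reads was not examined.

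Il6, an inflammatory cytokine that stromal cells secrete, varied widely among the Hyp arrays. The Hyp arrays read -0.039, 0.37, 0.93 and 0.78, against 0.033, -0.033, -0.14 and -0.11 on the WT arrays. Hyp replicate 1 lay among the WT arrays and the other 3 Hyp arrays above them. The difference of 0.57 ± 0.17 (SE; limma adjusted p = 0.0546) missed the threshold, as it did in 18 of the 21 alternative settings. Without Hyp replicate 1 it was 0.76 (limma adjusted p = 0.00401). Over all the alternatives it ran from 0.43 to 0.86, with a limma adjusted p from 0.00401 to 0.131.

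Of the 3 transcription factors of limb mesenchyme, 2 fell and 1 did not pass, where 6.32% of all genes fell. Twist1, which holds mesenchymal cells back from osteoblast differentiation, had the largest change of the set. Its values were -0.61, -0.95, -0.19 and -0.18 in Hyp bone and 0.62, 0.18, 0.51 and 0.32 in WT bone. All WT arrays lay above all Hyp arrays, although the Hyp arrays were spread widely. Twist1 fell by 0.89 ± 0.17 (SE; limma adjusted p = 0.00578), or 1.85-fold. This rests on a single probe set, which also passed in the fit over all probe sets (limma adjusted p = 0.0104). Its near relative Twist2 lay at 0.24 ± 0.11 (0.181), and the difference between the 2 genes was not tested. Osteoblast markers were lower too, as given above. Their part in the fall of Twist1, Prrx1, Lifr or Gsn was not tested.

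Prrx1, a homeobox factor of limb mesenchyme and of skeletal progenitors, read -0.071, -0.29, -0.17 and -0.016 in Hyp bone and 0.20, 0.10, 0.028 and 0.18 in WT bone. The groups did not overlap, but Hyp replicate 4 and WT replicate 3 lay near each other. The gene mean fell by 0.26 ± 0.068 (SE; limma adjusted p = 0.0294), or 1.20-fold. None of its 6 probe sets passed singly, though all lay below 0, from -0.049 to -0.49. The call was lost without Hyp replicate 2 or 3 or WT replicate 1, 2 or 4 (limma adjusted p from 0.052 to 0.0923), without the shared-probe sets (-0.21, 0.0657), with the most variable probe set (-0.49, 0.0729) and with the muscle covariate (-0.27, 0.0527).

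**Figure D3:**
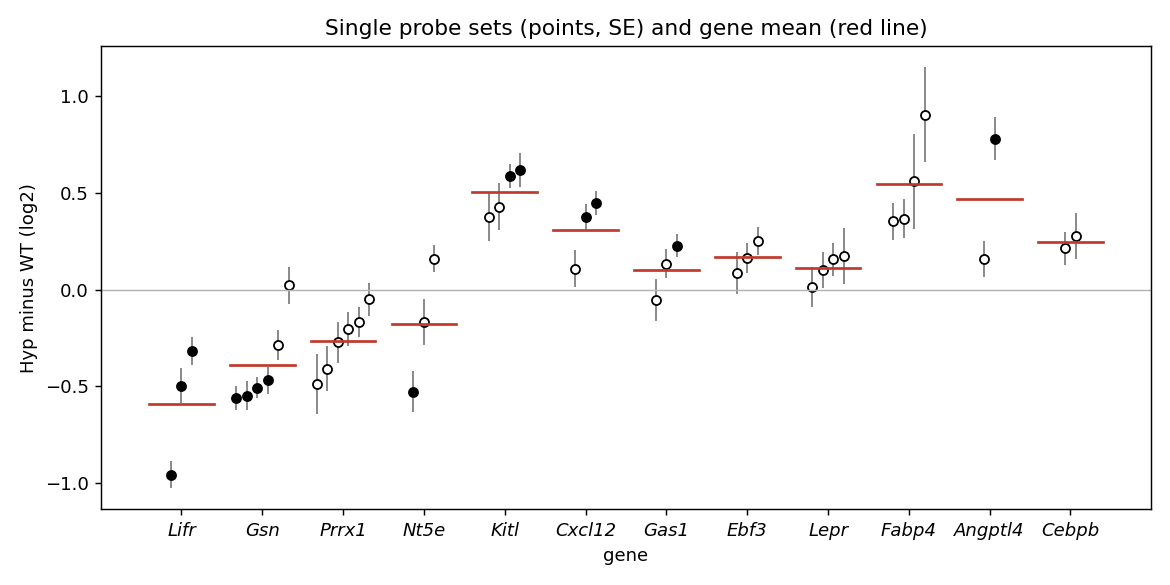
Difference between Hyp and WT (log2, y axis) at each probe set of 12 genes with several probe sets (points with SE, filled where the probe set passed in the fit over all probe sets), with the red line at the gene mean. All 3 probe sets of Lifr passed, while those of Nt5e lay on both sides of 0.

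Fibroblast and surface markers went both ways, with 2 higher and 1 lower of 10, or 30% against the 12.9% of all genes. Gsn, the actin-severing protein gelsolin, read -0.22, -0.16, -0.17 and -0.091 in Hyp bone and 0.25, 0.17, 0.26 and 0.24 in WT bone. The groups were well apart. It fell by 0.39 ± 0.049 (SE; limma adjusted p = 0.000539), or 1.31-fold. Of its 6 probe sets 4 passed, between -0.56 and -0.47, 1 lay at -0.29 (limma adjusted p = 0.0528) and 1 at 0.022. Without the shared-probe sets, those at -0.51 and 0.022 remained, and their mean lay at -0.24 (limma adjusted p = 0.0323). Osteoclasts and muscle also express gelsolin.

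Cd34, a sialomucin of endothelium, blood progenitors and fibroblasts, read 0.16, 0.31, 0.077 and 0.10 in Hyp bone and -0.26, -0.077, -0.10 and -0.10 in WT bone, with no overlap. It rose by 0.30 ± 0.066 (SE; limma adjusted p = 0.0149), or 1.23-fold, beside the endothelial markers, whose part was not tested. Thy1, a surface protein of fibroblasts, neurons and T cells, read 0.012, 0.12, 0.011 and 0.21 in Hyp bone and -0.33, -0.23, -0.011 and -0.13 in WT bone. The groups touched closely at WT replicate 3. Thy1 rose by 0.26 ± 0.076 (SE; limma adjusted p = 0.0445), a call lost without any 1 array other than WT replicate 3 (limma adjusted p from 0.0592 to 0.126) and with each of 3 other normalizations between arrays (0.0541 to 0.12). Its single probe set did not pass in the fit over all probe sets (limma adjusted p = 0.0825). T and NK cell markers had 1 of 9 higher (Cd4) and none lower, or 11.1% against the 12.9% of all genes. Their sums ran from 0.093 to 1.18 in Hyp bone and from -1.02 to 0.28 in WT bone.

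The markers of connective-tissue fibroblasts Dpt, Clec3b, Pi16 and Col15a1 did not pass. Dpt, dermatopontin, read 0.11, -0.094, -0.05 and -0.029 in Hyp bone and 0.029, -0.13, 0.56 and 0.88 in WT bone, so that WT replicates 3 and 4 stood above the other arrays. WT replicate 4 was also high for tendon and synovial markers, with a list mean of 0.76 against -0.20 to 0.16 on the other 7 arrays. Clec3b, Col15a1 and Pi16 lay at -0.051 (95% interval -0.26 to 0.16), -0.081 (-0.26 to 0.10) and 0.14 (-0.024 to 0.30). Nes (nestin), a filament protein of perivascular cells, lay at 0.041 (-0.094 to 0.18) and Gas1, a hedgehog co-receptor, at 0.10 (-0.024 to 0.23). Of the 3 Gas1 probe sets, 1 was higher (0.23, limma adjusted p = 0.0486) and another lay at -0.052. For Nt5e, the surface enzyme CD73, the gene mean was -0.18 ± 0.074 (SE; limma adjusted p = 0.151), with 1 of its 3 probe sets lower (-0.53, limma adjusted p = 0.0136) and another at 0.16. The most variable probe set alone therefore passed (limma adjusted p = 0.0106).

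Further stromal and fibroblast markers were lower more often than higher in Hyp bone. Of 31 measured, 6 fell and 3 rose, or 29.0% against 12.9% of all genes, with a median of -0.10. The pair of PDGF receptors moved in opposite directions: Pdgfra, of fibroblasts and mesenchymal progenitors, fell by 0.47 ± 0.069 (SE; limma adjusted p = 0.00152), and Pdgfrb, of pericytes and stromal cells, rose by 0.58 ± 0.051 (7.46e-05). Pdgfra read -0.33, -0.41, -0.17 and -0.18 in Hyp bone, against 0.27, 0.073, 0.22 and 0.21 in WT bone. Pdgfrb read 0.22, 0.35, 0.28 and 0.30 in Hyp bone, against -0.32, -0.34, -0.21 and -0.28 in WT bone. Neither receptor's groups overlapped. Smooth muscle and pericyte markers were higher for 4 of 8 genes, with sums from 1.13 to 1.64 in Hyp bone and from -2.46 to -0.99 in WT bone.

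Of the matrix genes of fibroblasts, Pcolce2, an enhancer of procollagen processing, fell by 0.81 ± 0.12 (SE; limma adjusted p = 0.00183) and the collagen chain gene Col5a1 by 0.67 ± 0.076 (0.000278). S100a4, a calcium-binding protein of fibroblasts and macrophages, and the secreted glycoprotein gene Fstl1 rose by 0.68 ± 0.088 (0.000677) and 0.40 ± 0.062 (0.0021). The fall of Pcolce2 and Col5a1 stood beside that of the osteoblast markers, and the rise of S100a4 beside that of the macrophage markers. Of 6 tendon and synovial markers, 2 also fell, Mkx (-0.89) and Fmod (-0.86), and 1 rose, where 6.32% of all genes were lower and 6.54% higher. The part of any of these cell types was not tested.

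**Figure D4:**
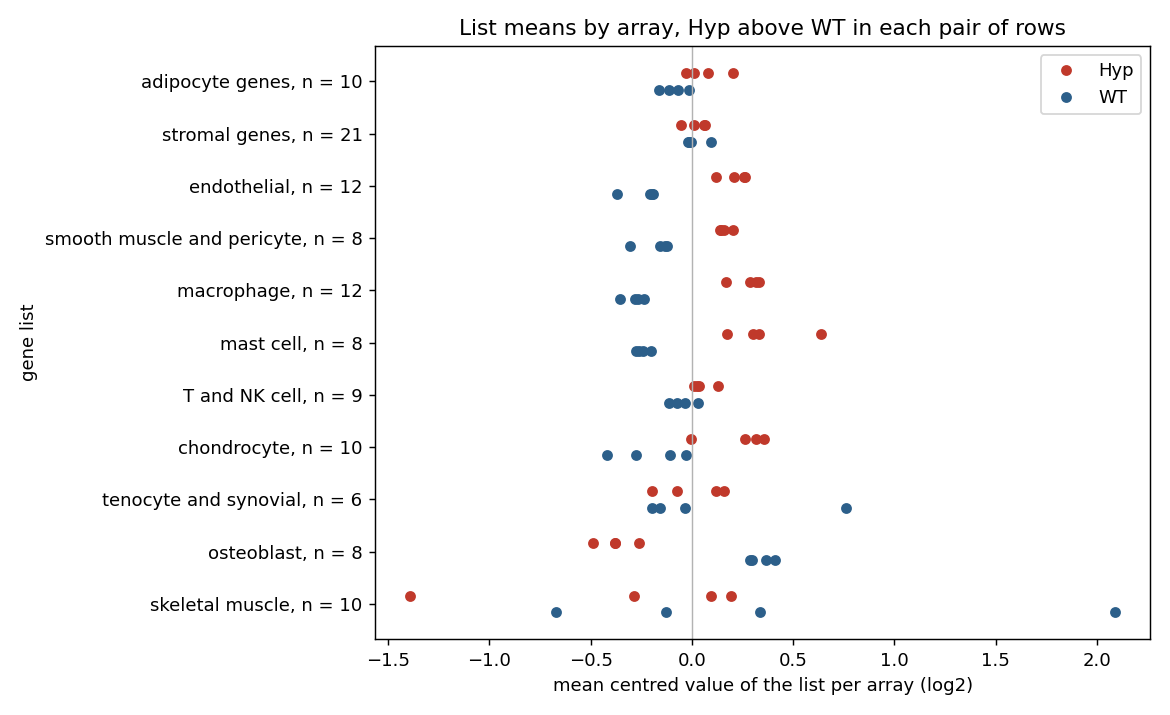
Mean centred value (log2, x axis) over the measured genes of each list on each array, with the Hyp arrays above the WT arrays in each pair of rows. Endothelial, pericyte, macrophage and mast cell lists lie apart upward in Hyp and osteoblasts downward. The chondrocyte list lies above WT only narrowly, with Hyp replicate 4 at -0.0048 and WT replicate 4 at -0.030. The adipocyte and stromal lists, each with genes that rose and genes that fell, overlap. Skeletal muscle is set apart by Hyp replicate 2 and WT replicate 3.

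Among the other cell types, mast cell markers were higher for 6 of 8 genes and chondrocyte markers for 5 of 10, with medians of 0.36 and 0.49. Tendon and synovial markers were higher for 1 and lower for 2 of 6. Of all genes, 6.54% were higher and 6.32% lower.

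The mean of the 21 stromal and fibroblast genes was 0.011, -0.055, 0.063 and 0.059 on the Hyp arrays and -0.006, -0.018, -0.017 and 0.092 on the WT arrays, and these ranges overlap. Genes that rose and genes that fell offset each other in this mean, so it cannot show whether single genes changed.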

How the data were processed

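The deposited values cover 8 arrays of biotin-labelled total RNA. RMA made these deposited values, read here as log2, per the submitters' processing notes, and its version is not given in the sources used here. In the deposited values each probe set has a median of 0 (within 5e-07), and the labels do not mention centring. They name no log base either; 2 was assumed, as RMA gives. Precision is limited by the number of arrays; a gene's difference had a median SE of 0.065.

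After 64 control probe sets were left out, 45037 remained, of which 34945 had 1 gene symbol, 932 several and 9160 none here. For 34741 the symbol was brought up to date by gene ID from RefSeq (GRCm38.p6). The probe sets of a gene were averaged per array. Hyp was compared with WT over 18193 genes, and over all probe sets, in limma 3.58.1 (R 4.3.3; lmFit and eBayes with genotype alone). P-values were two-sided, adjusted by Benjamini-Hochberg over all features, with a threshold of 0.05. Intervals are 95% intervals of that fit. SE comes from the fit.

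The genes, the lists set beside them and the tests were chosen with earlier results of these data known. All 35 genes are named; from each list beside them up to 6 that passed with the smallest p, and at most 2 from lists of other cell types. Other genes are said to be named after their values were seen. The procedure was tested on simulated data whose noise was independent for each gene and array. Those data hold no shift shared by many genes of an array, so the test cannot show how such shifts affect the calls. The alternative settings changed the normalization between arrays (3 ways), the probe sets used, the array weights, the prior variance, the SD filter or the threshold, added a muscle covariate or the replicate number, or left out arrays. Motifs were searched on both strands.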

Additional observations from a re-analysis of the deposited data

Results flagged for a closer look

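Among the 31 genes, each checked in both groups, 3 had 1 array well away from its group's other 3. Chance gives such a gap in about 1 of 20 groups, so about this many would arise by chance alone. Gas1 read 0.17 in Hyp replicate 3, against 0.0093 to 0.028 in the other Hyp arrays. Lifr read 0.40 in WT replicate 1, against 0.31 to 0.32 in the other WT arrays, and that array lay farther from the Hyp arrays than they did. Cd34 read -0.26 in WT replicate 1, against -0.10 to -0.077 in the other WT arrays, so that array lay farthest from the Hyp arrays.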

How the results depend on the processing

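Lifr, Gsn, Kitl, Cxcl12 and Twist1 kept their direction and passed under all 21 alternatives. Twist1 has a single probe set, so the settings that changed the probe sets used left its values as they were. Over the 31 genes and their alternatives, 585 values kept direction and side of the threshold, 44 lost and 8 gained a call, and 9 changed sign. No gene that changed sign was called: Gas1 (-0.052 with the most variable probe set), and, over the fits without 1 array, Cidec (-0.0072 to 0.091), Clec3b (-0.10 to 0.030), Plin4 (-0.030 to 0.097) and Foxc1 (-0.024 to 0.061, and -0.0073 without both Hyp replicate 2 and WT replicate 3). The causes were not tested.

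The 2 higher adipocyte genes became 1 with cyclic loess, 0 without shared-probe sets and 1 at an adjusted p under 0.01. The 1 lower became 0 at that threshold, with the muscle covariate and without both arrays. The 4 higher stromal genes became 2 at 0.01. Over all genes, the 1190 higher and 1150 lower became 407 and 618 at 0.01, and the higher 1891 at 0.1. Over all probe sets, the 1452 higher became 2206 with array weights, 965 with the SD filter, 458 at 0.01 and 2714 at 0.1, and the 1760 lower became 844 at 0.01. Thy1 also lost its call in limma with array medians at 0 (0.0546), quantile (0.0541) or cyclic loess normalization (0.12), the most variable probe set rule (0.0737) and without shared-probe sets (0.0511).

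Leaving out 1 array gave 605 to 1437 higher and 805 to 1153 lower genes, 625 to 2125 higher and 1055 to 1975 lower probe sets, 1 to 3 higher and 0 to 1 lower adipocyte genes, and 3 to 4 higher and 3 to 4 lower stromal genes. With the replicate number as a block, 1015 genes were higher and 1063 lower, with 3 and 1 adipocyte and 3 and 4 stromal genes; Cebpb gained (0.041) and Thy1 lost (0.0517) a call. Deviations of arrays with the same number correlated at 0.15, -0.044, 0.26 and 0.18, and those with different numbers from -0.27 to 0.20. Not every array correlated best with its own number. The labels give no batch, and whether arrays of the same number shared any handling was not tested. Signal over background cannot be read from centred values.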
